A study of Mus musculus with 10 samples.

Results

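The 10 mRNAs described here encode cytoplasmic actin and the small proteins that turn actin filaments over. They are Cotl1 (ENSMUSG00000031827), Cfl1 (ENSMUSG00000056201), Cfl2 (ENSMUSG00000062929), Dstn (ENSMUSG00000015932), Pfn1 (ENSMUSG00000018293), Pfn2 (ENSMUSG00000027805), Tmsb4x (ENSMUSG00000049775), Tmsb10 (ENSMUSG00000079523), Actb (ENSMUSG00000029580) and Actg1 (ENSMUSG00000062825). They were taken by symbol from the 55416 genes of the count table, and all 10 passed the filter on low counts. The list was put together with the immunoprecipitation result of Cotl1 known, so the values of Musashi IP over IgG below are a description of these genes and carry no p-value.

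RNA was recovered from mouse pituitary lysates with pooled antibodies against Musashi1 and Musashi2 (Musashi IP), or with control rabbit IgG from an equal share of the same lysate, and sequenced as total RNA depleted of ribosomal RNA. Each of the 5 lysates held 6 pituitaries of sighted FVB mice (FVB.129P2-Pde6b+Tyrc-ch/Ant) aged 8 to 10 weeks. There were 5 Musashi IP and 5 IgG libraries, with lysates 2, 5 and 6 from females and lysates 3 and 7 from males. All mice were controls, so no treatment or mutation separates the groups, and a value from 1 lysate is an average over pooled glands. Musashi1 and Musashi2 came down together and their RNAs cannot be told apart.

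Actin exists as free monomers and as filaments, and cells move it constantly between these states. Cofilins and destrin bind filaments through an ADF-homology domain, sever them and release monomers; coactosin-like protein carries the same fold. Profilins load monomers with ATP and pass them to growing ends, while beta-thymosins hold monomers in reserve. In endocrine cells such as those of the pituitary, the cortical actin network takes part in secretory granule release. Musashi proteins are known for binding 3' untranslated regions (3' UTRs) at short motifs built on UAG, and for repressing or activating translation of the bound mRNA.

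Library totals ran from 6673425 to 13019326 counts, so 1 count in the shallowest library was worth 0.135 CPM (counts scaled to the same total in every library, after TMM). Hormone mRNAs marked the tissue, with a summed level of 14289 to 39676 CPM in Musashi IP and 12960 to 51216 CPM in IgG, although Lhb had 0 counts in all 10 libraries. IgG 2 stood apart from the other IgG libraries. Mitochondrial RNA held 2.77% of its counts against 0.210 to 0.798% in the other 4. Its hormone mRNAs summed to 51216 CPM against 12960 to 23028 CPM in the other 4, and its 10 immune markers to 89.1 CPM against 45.6 to 72.2 CPM. The 8 endothelial markers summed to 384 CPM there against 87.9 to 159 CPM, the 9 mural or fibroblast markers to 1284 CPM against 282 to 661 CPM, and the 5 erythroid markers to 1248 CPM against 461 to 653 CPM. Musashi IP 2 was likewise the highest Musashi IP library for the hormone, mural or fibroblast and erythroid markers. The 6 stem or progenitor markers summed to 80.0 to 178 CPM in Musashi IP and 30.6 to 71.7 CPM in IgG, and their part in the results below was not tested. In lysate 6 the spread of log2 ratios over all genes was widest, with an SD of 1.03 against 0.48 to 0.63 in the other lysates.

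The 3' UTRs of these mRNAs differed widely in Musashi motifs, which were searched as GUAGU and AUAGU, and the same letters with 2 or 3 U before the AGU, on the mRNA strand in the longest annotated 3' UTR of each gene (GENCODE M21 transcripts, on GRCm38). The count was 7 in Cfl2 (2308 nt), 5 in Pfn2 (1322 nt), 4 in Cfl1 (1708 nt), 2 in Actg1 (700 nt) and 1 each in Dstn (1088 nt) and Actb (683 nt). There was no match in Cotl1 (1023 nt), Pfn1 (274 nt), Tmsb4x (408 nt) or Tmsb10 (271 nt). Of 13665 tested genes with a 3' UTR of at least 100 nt (median 1270 nt), 73.2% held a motif. This share depended on length. Among 3' UTRs of similar length, by the window given below for Cotl1, it was 27.1% for Pfn1, 41.0% for Tmsb4x and 27.2% for Tmsb10. At the lengths of Pfn1, Tmsb4x and Tmsb10 most tested 3' UTRs therefore held no motif. Sites are shown for the 2 actin mRNAs, which came down to different extents, and for Cfl1 and Dstn, which came down to similar extents. Each is a 25-base window of the 3' UTR, 5′ to 3′, with the motif in capitals.
Actg1 site 1: cauaucuugAUUUAGUccuuaguuc
Actg1 site 2: ccaucgguuGUUAGUugccuugagu
Actb site 1: ucuuuuuuuaAUAGUcauuccaagu
Cfl1 site 1: ucuaaccacaAUAGUgacucugugc
Cfl1 site 2: ugcuugucuGUUUAGUucugugugu
Cfl1 site 3: ucuuaccuuuAUAGUggacagugag
Cfl1 site 4: uccuguuuugAUAGUgggaguagag
Dstn site 1: uaaaaauuguAUAGUgucugcaaac

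The 3' UTR of Cotl1 is shown by its UAG triplets, since it was the most enriched of these mRNAs and held no full motif. It had 6 of them, against a mean of 11.5 in the 1877 tested 3' UTRs within 20% of its length, all of which held at least 1. Its GC content of 58.1% was above that of 97.6% of tested 3' UTRs, and 75.3% of 3' UTRs of similar length held a full motif. The triplets are in capitals.
Cotl1 triplet 1: cuguuuccugcUAGcccuacgccgg
Cotl1 triplet 2: cucagagcccaUAGauguggcccca
Cotl1 triplet 3: ugucccucuggUAGacacugcuugg
Cotl1 triplet 4: aguaacagguuUAGgucuggcgugg
Cotl1 triplet 5: ggaggcuggcaUAGgccucagggca
Cotl1 triplet 6: gguuggaaucuUAGucugcaaauuc

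These are matches of letters in annotated 3' UTRs, not measured binding sites, and the 3' UTRs in use in these cells were not measured. No match says only that the letters were not in the window searched.

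Which of these mRNAs came down with Musashi more than with IgG was the first comparison. Relative to IgG, 5 of the 10 passed the threshold as enriched in a fit over all genes, namely Cotl1, Cfl1, Dstn, Pfn2 and Actg1, and 0 passed as lower (edgeR quasi-likelihood test with the lysate as a block, adjusted p under 0.05). Over all 20550 genes tested 18.5% passed as enriched and 8.4% as lower. Since the list was made with this comparison known, nothing is read from its share. The median log2 fold change of the 10 was 0.67, beside 0.09 for protein-coding genes and -0.07 for all genes. With library totals in place of TMM scaling all fold changes moved down together, the median of all genes to -0.24 and that of the 10 to 0.50.

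**Figure D1:**
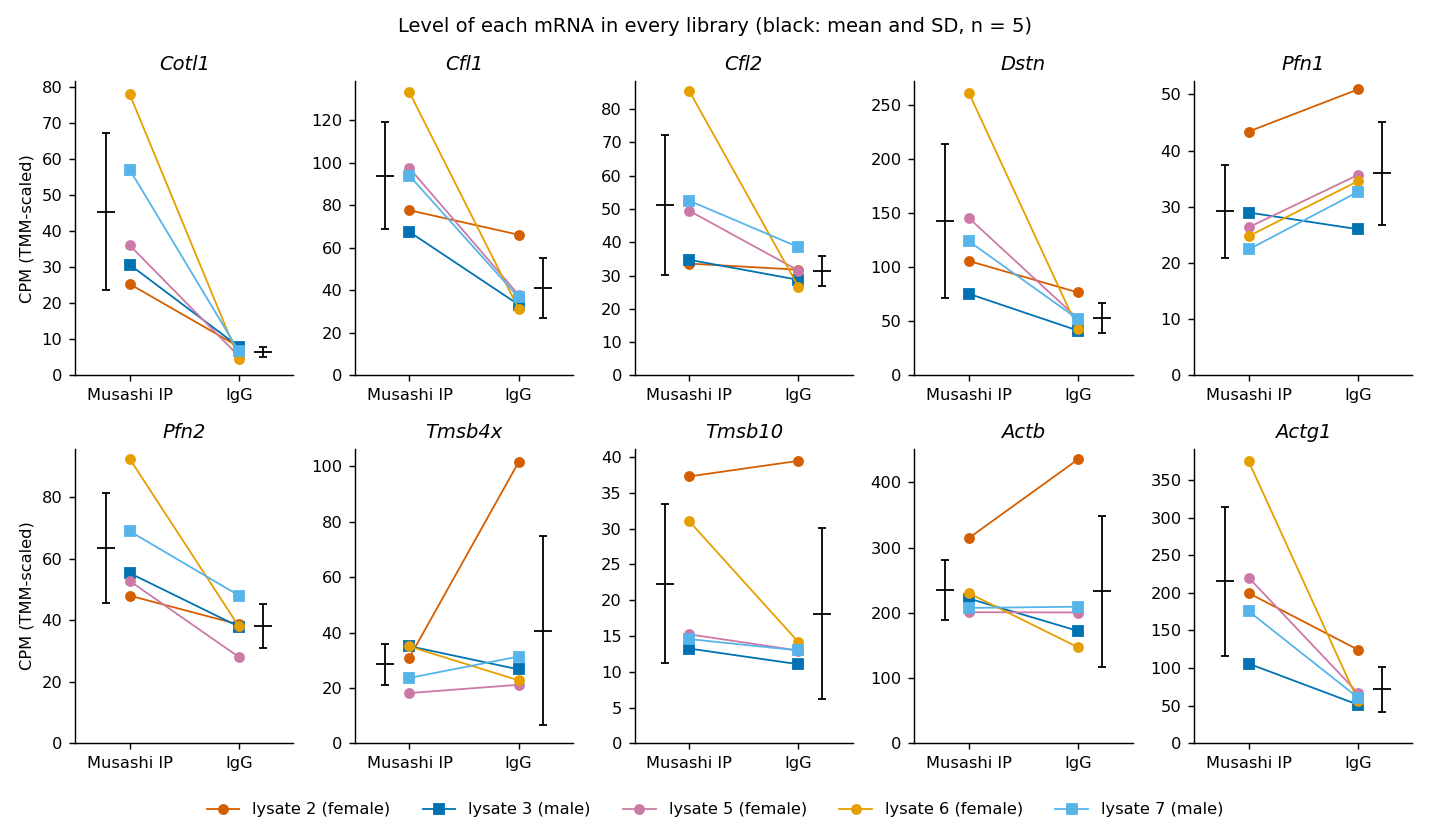
Level of each mRNA in CPM (TMM-scaled, linear axes from 0) in the 5 Musashi IP libraries (left) and the 5 IgG libraries (right) of each panel. Lines join libraries of 1 lysate, circles are female and squares male, and the black marks give mean and SD (n = 5); Cotl1 and Cfl1 are the mRNAs whose groups are apart, and IgG 2 lies highest for Tmsb4x and Actb.

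Cotl1, which encodes coactosin-like protein, an F-actin-binding protein that also binds 5-lipoxygenase, was the most enriched of the 10. It had 25.3, 30.7, 36.1, 78.0 and 57.1 CPM in Musashi IP from lysates 2, 3, 5, 6 and 7, against 7.94, 7.95, 5.32, 4.64 and 6.69 CPM in IgG. The lowest Musashi IP library was therefore above the highest IgG library, and the 5 IgG libraries were close to each other. Its mean was 45.4 ± 21.8 CPM in Musashi IP and 6.51 ± 1.51 CPM in IgG (SD, n = 5 each). That is a fitted 6.47-fold enrichment (log2 2.69 ± 0.31, SE), the 7th largest log2 fold change of the 20550 genes tested. Behind these levels stood 212 to 796 counts in Musashi IP and 40 to 71 counts in IgG, so in IgG it was the least counted of the 10.

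The 3 relatives of Cotl1 in the ADF-homology family came down less strongly and not equally. Cfl1, the non-muscle cofilin that severs filaments, had 77.7, 67.5, 97.5, 133 and 94.0 CPM in Musashi IP, against 66.2, 33.3, 37.9, 31.3 and 36.7 CPM in IgG from lysates 2, 3, 5, 6 and 7. Musashi IP was higher in every lysate and the groups did not overlap, although 67.5 CPM in Musashi IP 3 lay close to 66.2 CPM in IgG 2. The fitted fold change was 2.31 (log2 1.21 ± 0.23, SE). Cotl1 and Cfl1 were the 2 of the 10 whose Musashi IP libraries all lay above all IgG libraries, which held for 9.7% of all genes tested.

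Dstn encodes destrin, also called actin-depolymerizing factor. It had 106, 75.4, 145, 261 and 124 CPM in Musashi IP and 76.7, 41.4, 52.3, 42.9 and 51.9 CPM in IgG. Each lysate was higher in Musashi IP, but the groups overlapped, with Musashi IP 3 just below IgG 2. The fitted value was 2.51-fold (log2 1.33 ± 0.27, SE). Cfl2, the cofilin best known from muscle, had 33.6, 34.7, 49.5, 85.5 and 52.5 CPM in Musashi IP, against 31.8, 28.7, 31.5, 26.7 and 38.5 CPM in IgG. Its ratio was near even in lysate 2 and reached log2 1.67 in lysate 6. Its log2 fold change of 0.63 ± 0.21 did not pass the threshold with all lysates, but passed it as enriched in 6 of 11 alternative analyses. Cfl2 held the most motifs of the 10, 7 in a 3' UTR of 2308 nt, and had a smaller fold change than Cotl1, with 0. Tested 3' UTRs of similar length to that of Cfl2 held a mean of 4.49 motifs. Of the mRNAs with a motif, Cfl1, Dstn, Pfn2 and Actg1 passed as enriched, and Cfl2 and Actb did not. Of those without a motif, Cotl1 passed, and Pfn1, Tmsb4x and Tmsb10 did not. A link between motif number and fold change was not tested.

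The profilin mRNAs differed in direction. Pfn2, the profilin best known from neurons, had 47.9, 55.3, 52.7, 92.4 and 68.9 CPM in Musashi IP and 38.6, 37.9, 28.0, 37.9 and 48.0 CPM in IgG. It was higher in Musashi IP in all 5 lysates, by 1.64-fold in the fit (log2 0.71 ± 0.15, SE), and the groups met at 47.9 CPM in Musashi IP 2 and 48.0 CPM in IgG 7. Without lysate 5 it no longer passed the threshold, at log2 0.67. Pfn1, the ubiquitous profilin, had 43.4, 29.0, 26.4, 24.8 and 22.4 CPM in Musashi IP, against 50.9, 26.0, 35.7, 34.6 and 32.6 CPM in IgG. It was lower in Musashi IP in 4 of 5 lysates, and lysate 3 was the exception. The log2 fold change of -0.31 ± 0.12 did not pass, but without lysate 3 (-0.51), with library totals (-0.48) and after a correction for transcript length and GC content (-0.44) Pfn1 passed as lower.

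Neither beta-thymosin mRNA passed. Tmsb4x, on the X chromosome, encodes thymosin beta-4, the main monomer-sequestering peptide of many cells. It had 31.0, 35.1, 18.1, 35.0 and 23.6 CPM in Musashi IP, against 102, 26.7, 21.1, 22.7 and 31.3 CPM in IgG from lysates 2, 3, 5, 6 and 7. The library that stood out was IgG 2, which had more than 3 times the level of any other IgG library, while Musashi IP 2 lay within the range of its group. The log2 fold change was -0.27 ± 0.30, and without lysate 2 it turned to 0.15. IgG 2 is also the library with the highest summed hormone, immune, endothelial, mural and erythroid markers of the IgG group, and their part in this value was not tested.

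Tmsb10, which encodes thymosin beta-10, had 37.3, 13.2, 15.2, 31.0 and 14.6 CPM in Musashi IP, against 39.5, 11.1, 12.97, 14.2 and 12.98 CPM in IgG. Both libraries of lysate 2 were high, and the log2 ratio was 1.12 in lysate 6 but between -0.081 and 0.26 in the other 4. The fitted log2 fold change was 0.34 ± 0.17. In the transcript of Tmsb10, 43.5% of all 50-base stretches also occur in 5 other annotated genes, so its counts depend on how reads that map to several places were treated, which is not given in the sources used here.

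The 2 cytoplasmic actins, whose proteins are nearly identical, were far apart. Actg1, the gene of gamma-actin, had 200, 106, 220, 375 and 176 CPM in Musashi IP, against 124, 51.4, 66.9, 56.7 and 60.8 CPM in IgG. All 5 lysates were higher in Musashi IP, and the groups overlapped through Musashi IP 3 and IgG 2. The fit gave 2.89-fold enrichment (log2 1.53 ± 0.26, SE). Actb, the gene of beta-actin, had 315, 222, 201, 230 and 208 CPM in Musashi IP, against 435, 172, 201, 147 and 209 CPM in IgG. Musashi IP and IgG were almost equal in lysates 5 and 7, Musashi IP was higher in lysates 3 and 6, and IgG was higher in lysate 2. The log2 fold change was 0.11 ± 0.15, and it turned negative with library totals (-0.070) and without lysate 3 (-0.050) or lysate 6 (-0.030).

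Of the 50-base stretches in the Actg1 transcript 56.7% also occur in other annotated genes, 22 in number, but only 1.58% occur in Actb. For Actb 14.2% were shared with 18 other genes, and for Cfl1 9.11% with 3. No stretch of Cotl1, Cfl2, Dstn, Pfn1, Pfn2 or Tmsb4x occurred in another annotated gene. The actin values are therefore uncertain to the extent that reads were lost to, or gained from, these copies.

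**Figure D2:**
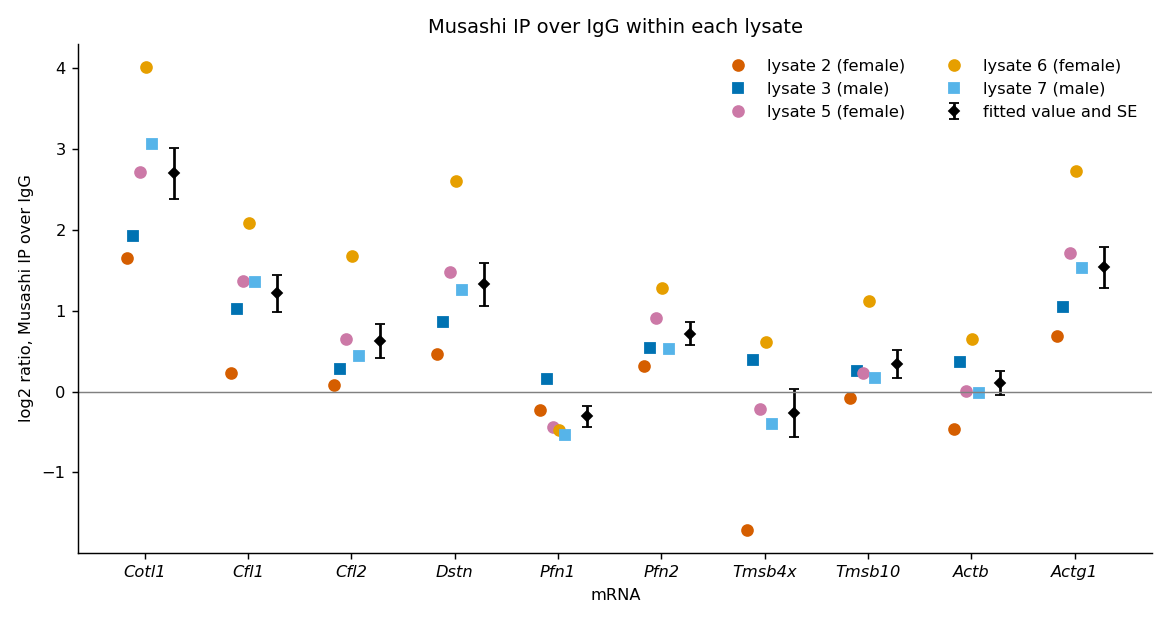
Log2 ratio of Musashi IP over IgG within each lysate (coloured points, circles female, squares male) and the fitted log2 fold change with its SE (black diamonds) for the 10 mRNAs. Lysate 6 gives the highest ratio for 9 of the 10 (37.7% of all genes tested) and lysate 2 the lowest for 9 of the 10 (29.1%). Cotl1 has its lowest ratio, 1.65, in lysate 2.

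The lysates at the top and bottom were the same for most of these mRNAs. Lysate 6 gave the highest ratio for 9 of the 10, with Pfn1 the exception, and lysate 2 the lowest for 9, with Pfn1 again the exception. Over all genes tested, enriched or not, lysate 6 gave the highest ratio for 37.7% and lysate 2 the lowest for 29.1%. Lysate 6 also gave the lowest ratio for 31.8% of them, and its log2 ratios had the widest spread. Whether enriched genes in general have this order of lysates was not tested. The median log2 ratio of the 10 mRNAs was 1.48 in lysate 6, 0.78 in lysate 5, 0.48 in lysate 7, 0.47 in lysate 3 and 0.16 in lysate 2. Higher levels in Musashi IP were seen for 10 of them in lysate 3, 9 in lysate 6, 8 in lysate 5, 7 in lysate 7 and 6 in lysate 2. For 6 of the 10 (Cotl1, Cfl1, Cfl2, Dstn, Pfn2 and Actg1) Musashi IP was higher in all 5 lysates, as it was for 22.4% of all genes tested.

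Ratios of counts between related mRNAs within 1 library do not depend on library scaling. Actg1 had 0.634, 0.477, 1.10, 1.63 and 0.846 counts per count of Actb in Musashi IP, against 0.286, 0.298, 0.334, 0.386 and 0.291 in IgG from lysates 2, 3, 5, 6 and 7. The IgG ratios sat within a narrow band, and every Musashi IP ratio was above all of them. The mean was 0.936 ± 0.451 in Musashi IP and 0.319 ± 0.0418 in IgG (SD, n = 5 each). Pfn2 had 2.36 ± 1.04 counts per count of Pfn1 in Musashi IP and 1.11 ± 0.346 in IgG, higher in all 5 lysates with overlapping groups. Cfl1 had 1.92 ± 0.276 counts per count of Cfl2 in Musashi IP and 1.31 ± 0.442 in IgG, also higher in each lysate. IgG 2 was the outlying value there, at 2.08, next to 0.952 to 1.20 in the other IgG libraries. Tmsb10 had 0.785 ± 0.310 counts per count of Tmsb4x in Musashi IP and 0.491 ± 0.117 in IgG, higher in 4 of 5 lysates. These ratios rest on the same comparison as the fold changes and are given without a test.

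**Figure D3:**
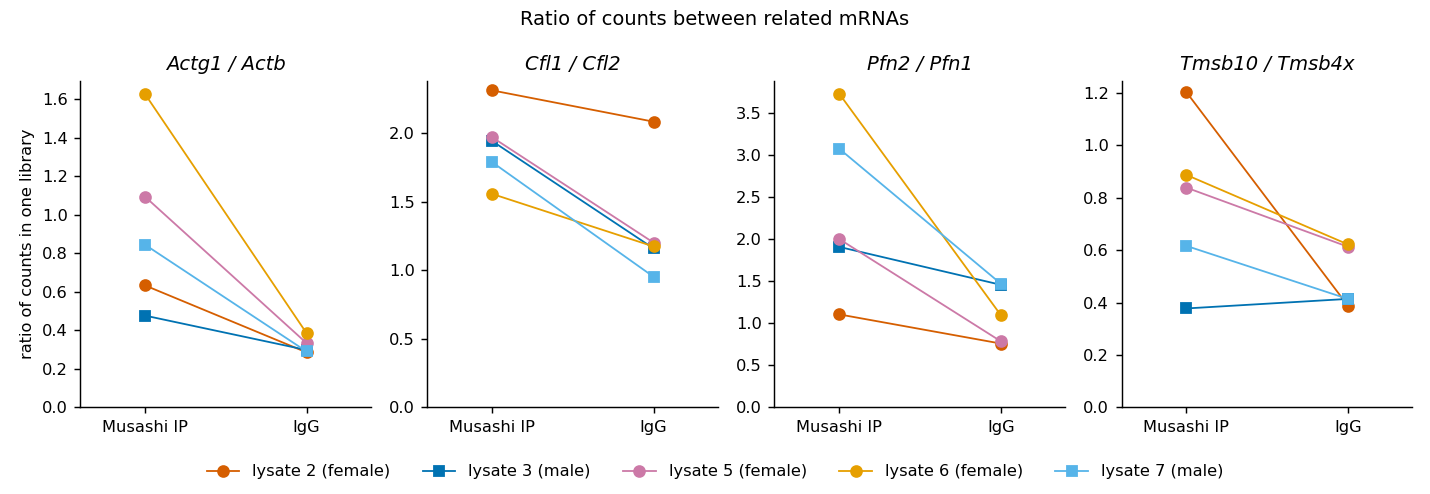
Ratio of raw counts between 2 related mRNAs within each library, in Musashi IP (left) and IgG (right) of each panel, with lines joining libraries of 1 lysate (circles female, squares male; linear axes from 0). The ratio of Actg1 to Actb lies between 0.477 and 1.63 in Musashi IP and between 0.286 and 0.386 in IgG.

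Levels were compared between genes per length, in TPM (counts over the length of the union of basic annotated exons, scaled to a fixed total per library). In Musashi IP the order was Actb (381 ± 58.4 TPM), Actg1 (335 ± 121), Dstn (227 ± 91.3), Cfl1 (116 ± 23.5), Pfn1 (88.6 ± 22.1), Cotl1 (87.9 ± 37.0), Tmsb4x (64.9 ± 16.8), Pfn2 (55.6 ± 12.8), Cfl2 (53.6 ± 17.7) and Tmsb10 (52.7 ± 21.2, SD, n = 5). In IgG it was Actb (389 ± 130 TPM), Actg1 (119 ± 30.4), Pfn1 (115 ± 15.2), Tmsb4x (92.2 ± 60.7), Dstn (90.9 ± 12.4), Cfl1 (53.3 ± 10.4), Tmsb10 (44.8 ± 21.6), Pfn2 (36.1 ± 8.18), Cfl2 (35.8 ± 6.43) and Cotl1 (13.6 ± 3.02). In Musashi IP the steps from Dstn to Cfl1 and from Cfl1 to Pfn1 were larger than the SD of either neighbour, and the other neighbours differed by less. In IgG the steps from Actb to Actg1, from Dstn to Cfl1 and from Cfl2 to Cotl1 were larger than the SD of either neighbour, and the other neighbours differed by less. Cotl1 was last by level in IgG and the sixth in Musashi IP. Both orders are of RNA recovered with Musashi antibodies or IgG. None of these libraries is of whole lysate, so neither order gives the levels of expression in the pituitary. In such bulk lysates fewer cells that express a gene and less of its RNA per cell cannot be told apart either.

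By the 5 ratios of single lysates, the genes most like Cotl1 among 10918 protein-coding genes with at least 8 CPM were Twsg1, Rcan1, Scd2, Nptxr and Tmem130. Their root mean square difference from Cotl1 over the 5 lysates was 0.228, 0.247, 0.272, 0.275 and 0.279 on the log2 scale. Twsg1 had log2 ratios of 1.69, 2.04, 2.67, 4.04 and 2.56, against 1.65, 1.92, 2.71, 4.01 and 3.05 for Cotl1 in lysates 2, 3, 5, 6 and 7. Of the other 9 mRNAs Actg1 was nearest to Cotl1, at 1.16 and rank 371.

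Whether females and males differed was tested within each kind of library and as a difference of the effect itself, comparisons that did not choose these genes. None of the 10 passed in any of them (edgeR, Benjamini-Hochberg over all genes). Within Musashi IP 2.84% of 21238 genes passed, and within IgG 4.5% of 20987. An unadjusted p under 0.05 (edgeR) was held by 3505 of these genes within Musashi IP and by 3496 within IgG. The difference between sexes in Musashi IP over IgG passed for 0% of 22601 genes, with 295 at an unadjusted p under 0.05, and DESeq2 also called 0.

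**Figure D4:**
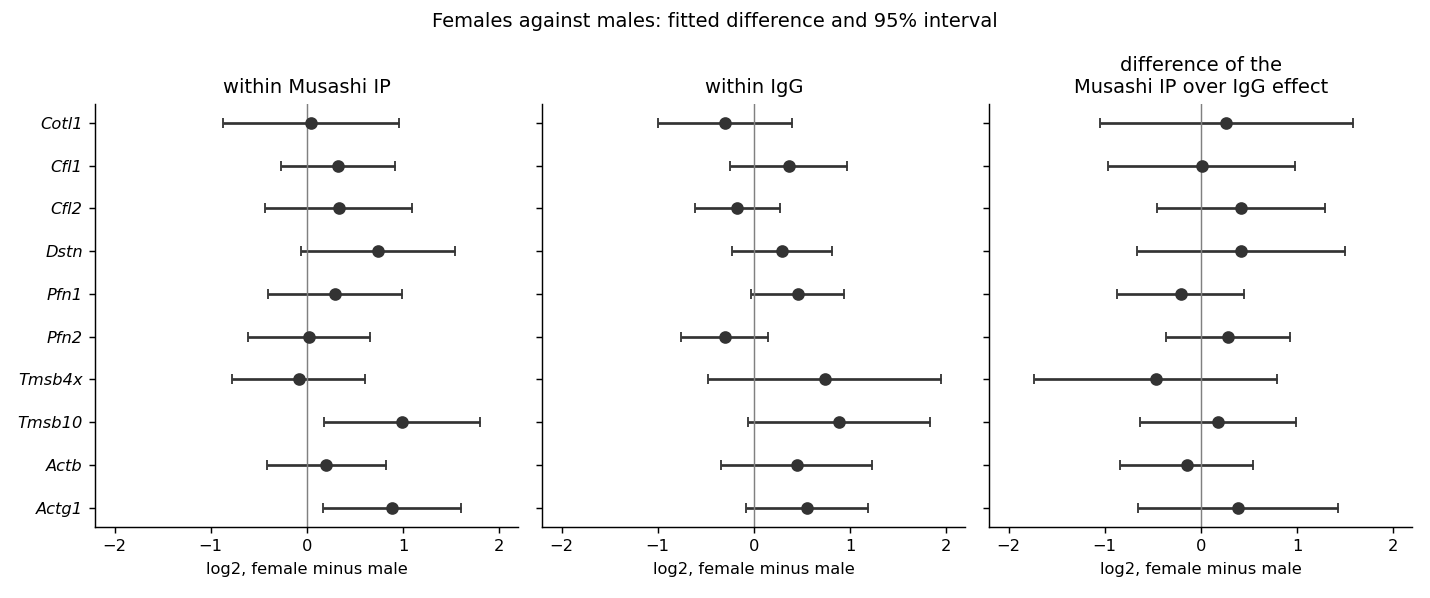
Fitted log2 difference, female minus male, with its 95% interval for each of the 10 mRNAs within Musashi IP (left), within IgG (middle) and for the Musashi IP over IgG effect (right), from 3 female and 2 male lysates. Tmsb10 and Actg1 within Musashi IP are the only intervals that lie above 0, and neither passed after adjustment over all genes. An interval that leaves out 0 goes with an unadjusted p under 0.05 (edgeR), which 3505 of 21238 genes had within Musashi IP.

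Within Musashi IP, Tmsb10 averaged 27.9 ± 11.4 CPM in females (SD, n = 3) and had 13.2 and 14.6 CPM in the 2 male libraries, a log2 difference of 0.99 (95% interval 0.18 to 1.80; edgeR adjusted p = 0.209). The female libraries lay above the male ones, though Musashi IP 5 with 15.2 CPM was close to them. Actg1 in Musashi IP averaged 265 ± 95.6 CPM in females and had 106 and 176 CPM in males, with a log2 difference of 0.88 (0.16 to 1.60; edgeR adjusted p = 0.208). Within IgG, Tmsb10 averaged 22.2 ± 15.0 CPM in females and had 11.1 and 12.98 CPM in males, and Tmsb4x, which is X-linked, averaged 48.5 ± 46.0 CPM in females and had 26.7 and 31.3 CPM in males. Their adjusted p-values were 0.344 and 0.575 (edgeR). With no filter on low counts Tmsb10 passed within Musashi IP (edgeR adjusted p = 0.0264) and Tmsb10 and Tmsb4x passed within IgG (edgeR adjusted p = 0.0254 and 0.0206). Both female means rest on IgG 2: without that library the female minus male log2 difference within IgG was 0.18 for Tmsb10, in place of 0.88, and -0.40 for Tmsb4x, in place of 0.74.

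For Cotl1, the log2 ratio of Musashi IP over IgG averaged 2.79 ± 1.18 in the 3 female lysates and was 1.92 and 3.05 in the 2 male lysates. The fitted difference of 0.27 had an interval of -1.05 to 1.58, so differences within that interval were not excluded by these lysates. For Actg1 the ratio averaged 1.70 ± 1.02 in females and was 1.04 and 1.52 in males, with a difference of 0.39 (-0.65 to 1.43). Dstn had 1.51 ± 1.07 in females and 0.86 and 1.25 in males (difference 0.42, -0.66 to 1.501), and Cfl1 had 1.22 ± 0.93 in females and 1.02 and 1.35 in males (difference 0.0087, -0.96 to 0.98). All 10 intervals held 0, and each adjusted p was 1 (edgeR).

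The wider set of actin regulators was counted from 12 lists of 123 genes that hold none of the 10 mRNAs. Of 110 tested, 36 rose in Musashi IP and 0 fell (edgeR, adjusted p under 0.05), which is 32.7% beside 25.7% of protein-coding genes. Among those with at least 8 CPM it was 35 of 90 (38.9%), beside 30.5% of protein-coding genes at that level. These lists too were chosen with results of this comparison known, so nothing is read from their shares. The median log2 fold change was 0.19. The number passing was 11 without lysate 5, 18 without lysate 7 and 22 without the lysate block. With library totals 29 rose and 10 fell, and after the length and GC correction 27 rose and 12 fell.

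**Figure D5:**
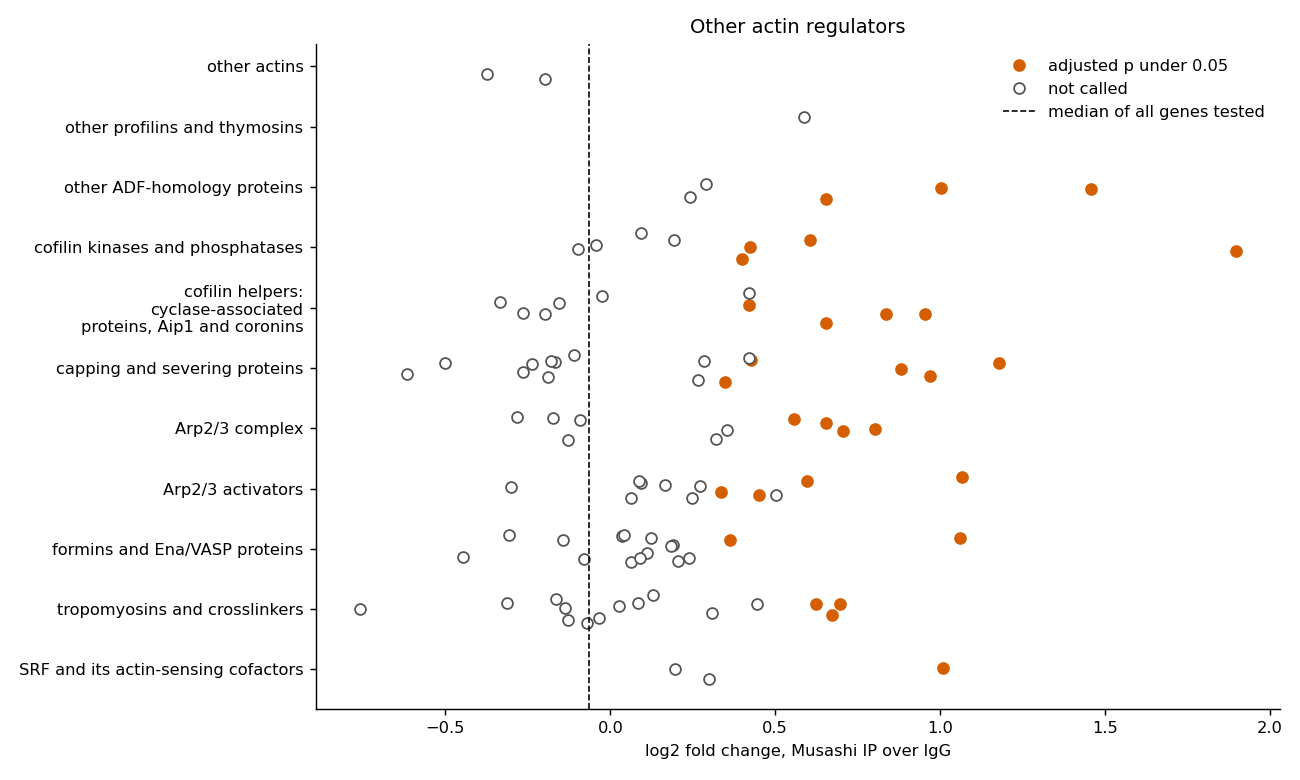
Log2 fold change of Musashi IP over IgG for the 98 tested genes of 11 wider actin lists, 1 point per gene, grouped by role on the vertical axis. Filled points passed the threshold (30 genes, all above 0) and open points did not; the dashed line at -0.07 is the median of all genes tested.

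Of 5 other ADF-homology genes tested 3 rose, the glia maturation factor gene Gmfb (log2 1.46 ± 0.23, SE), the twinfilin gene Twf1 (1.004 ± 0.23), whose product caps filaments and binds monomers, and Dbnl (0.65 ± 0.13). Gmfb averaged 326 ± 177 CPM in Musashi IP and 108 ± 13.1 CPM in IgG (SD, n = 5 each). Of 8 cofilin kinases and phosphatases 4 rose, among them the LIM kinase genes Limk1 (0.60 ± 0.15) and Limk2 (0.40 ± 0.10), whose products inactivate cofilin, and the slingshot phosphatase gene Ssh1 (0.42 ± 0.13), whose product reactivates it. The other was the cofilin phosphatase gene Pdxp (1.90 ± 0.30), a gene of low level named after its values were seen. Of 10 genes for helpers of cofilin 4 rose, including the cyclase-associated protein gene Cap1 (0.95 ± 0.22) and the coronin genes Coro2b (0.84 ± 0.13) and Coro1c (0.65 ± 0.14).

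At filament ends, 5 of 16 capping and severing genes rose, led by Capza2 (1.18 ± 0.20), a subunit of the barbed-end capping protein, Tmod2 (0.97 ± 0.17), a pointed-end cap, and the adducin gene Add1 (0.88 ± 0.15). Gelsolin, encoded by Gsn, had 17.6 ± 5.84 CPM in Musashi IP and 27.7 ± 12.97 CPM in IgG and did not pass (log2 -0.62, adjusted p = 0.0543, edgeR). Cnn1 (-0.76, adjusted p = 0.0538), Flna (-0.31, adjusted p = 0.0543) and Cyfip1 (-0.30, adjusted p = 0.0530), of the other lists, lay equally close to the edgeR threshold. All 4 passed as lower with library totals and after the length and GC correction, and they were named after their values were seen. Ssh2, Vil1, Svil and Flii also passed as lower in both of these alternatives. With library totals all fold changes moved down together. Of 10 Arp2/3 complex genes, whose products nucleate branches, 4 rose, including Arpc4 (0.70 ± 0.17), Actr2 (0.65 ± 0.17) and Actr3 (0.56 ± 0.17). Of 12 tested activators of that complex 4 rose, with Brk1 (1.07 ± 0.25), Wasf2 (0.60 ± 0.15) and the cortactin gene Cttn (0.45 ± 0.12).

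Formins and Ena/VASP proteins, which elongate filaments from profilin-bound actin, had 2 of 16 genes that rose, Diaph1 (1.06 ± 0.18) and Fmn1 (0.36 ± 0.11). Tropomyosins and crosslinkers had 3 of 15, among them Actn4 (0.67 ± 0.15) and Tpm3 (0.62 ± 0.14). Of the transcription factor gene Srf and the genes of its actin-sensing cofactors Mrtfa and Mrtfb, Mrtfb rose (1.01 ± 0.15). The 2 other actins tested, Acta1 and Acta2, which are best known from muscle, had 1.35 and 1.15 CPM on average in Musashi IP and 1.54 and 1.51 CPM in IgG and did not pass.

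Of the 23 genes named here by rule, 8 kept their call under all 11 alternative analyses, namely Gmfb, Coro1c, Coro2b, Capza2, Tmod2, Add1, Diaph1 and Mrtfb. Without lysate 5 the call was lost for 15 of them, although their log2 fold changes moved by only -0.091 to 0.017. Without lysate 7 it was lost for 11, with log2 fold changes that moved by -0.13 to -0.024.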

How the data were processed

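The authors deposited raw read counts per Ensembl gene, in whole numbers with no normalization. Reads were handled with FastQC 0.11.8, Trimmomatic 0.39 and STAR 2.7.1a and the build was GRCm39, per the submitters' processing notes. How reads were counted (program, annotation, strand, reads with several matches) is not given in the sources used here. Symbols, lengths and 3' UTRs came from GENCODE M21 (GRCm38) by gene ID (52135 of 55416 IDs, 94.1%), so no coordinates are given.

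Tests used R 4.3.3 and edgeR 4.0.16: filterByExpr, TMM, quasi-likelihood test, Benjamini-Hochberg at 0.05, with SE as the log2 fold change over the square root of F. Musashi IP against IgG had lysate as its block and left 4 residual degrees of freedom; the sex difference of that effect, and females against males within 1 antibody, left 3. Ratios of single lysates used a prior count of 2. Each lysate was split between antibodies per the labels' protocols, which pairs the libraries; deviations of same-numbered libraries correlated at 0.186 to 0.778, and for lysate 6 (0.186) less than with another lysate (0.415), unlike the other 4. Immunoprecipitations were done on separate occasions per the labels, which name more occasions than there are lysates here. Nothing says more of how mice were assigned, so p-values measure the spread between these lysates. No molecular identifiers are described, so counts are not independent molecules. No columns were left out.

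The members and lists were chosen with earlier results of these data known. Named from each wider list were up to 3 called genes of largest fold change with at least 8 CPM and the same sign in all 5 lysates. Of the 12 lists 11 are described, and the other, which counts in the totals, is not reported here. Tested on simulated data, the Musashi IP fit recovered 86.5% of 200 genes changed 2-fold (20200 genes). The fit of the sex difference recovered 79% of 200 genes changed 4-fold. The simulation gave every gene the same dispersion and held no differences between lysates, so recovery in the real data may be lower. Alternatives were DESeq2 1.42.0, other scalings, no count filter, no block, a length and GC correction by loess, and leaving out each lysate or library.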

Additional observations from a re-analysis of the deposited data

Results flagged for a closer look

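The values were looked at in 30 groups of 5 (each mRNA in Musashi IP, in IgG and as a ratio). In 7 groups, 1 value's gap to its nearest neighbour took up more of the range than Dixon's 95% limit for 5 values. The groups come from the same libraries, and the ratios are made from the other groups, so they are not independent. The number flagged is therefore not set against a rate expected by chance. Of these 7, 5 were IgG 2. In CPM, IgG 2 had 66.2 for Cfl1 (next highest IgG library 37.9), 102 for Tmsb4x (next 31.3), 39.5 for Tmsb10 (next 14.2), 435 for Actb (next 209) and 124 for Actg1 (next 66.9). Musashi IP 2 had 315 CPM for Actb, with 230 CPM in the next highest Musashi IP library. The log2 ratio of Tmsb10 was 1.12 in lysate 6, next to 0.26 in the second highest lysate.

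IgG 2 also had the highest mitochondrial share and the highest summed hormone, immune, endothelial, mural or fibroblast, and erythroid markers of the IgG libraries, with values in the description of the libraries. The part of these in the actin and thymosin levels was not tested. Without lysate 2 the log2 fold changes were 3.01 for Cotl1, 1.51 for Cfl1 and 1.80 for Actg1, each larger than with it.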

How the results depend on the processing

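Cotl1, Cfl1, Dstn and Actg1 were called enriched under all 11 alternatives for the Musashi IP over IgG comparison, and 4 to 6 of the 10 mRNAs were called enriched in each. The alternatives refit the same libraries and the list was made with this comparison known, so these calls are a description and no separate support. Without the lysate block, that is without the pairing of libraries, 2407 genes were enriched and 176 lower, against 3804 and 1727 with it, and 22 genes of the wider actin lists against 36. Leaving out 1 lysate gave 1676 to 4651 enriched genes, 187 to 2101 lower genes, 11 to 42 enriched genes of the wider lists and 0 to 4 lower ones. Lysate 5 gave 1676 and 187 when left out, and lysate 7 gave 2288 and 597. With library totals 4068 genes were lower. Lower genes of the wider lists, 0 in the analysis reported, were 3 with DESeq2 size factors, 10 with library totals, 1 with no count filter, 1 with the DESeq2 Wald test and 12 with the length and GC correction.

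For females against males, 1679 genes passed within Musashi IP with no count filter and 1059 with DESeq2, against 604. Within IgG 1947 passed with no filter, against 945. Leaving out 1 library gave 219 to 999 within Musashi IP and 172 to 1354 within IgG. Of 280 values of the 10 mRNAs in the sex comparisons 30 changed sign. With library totals Actb over IgG was -0.070, the sex difference of the Cfl1 effect -0.069 (-0.014 with no filter, -0.047 without the block), and female minus male within Musashi IP -0.15 for Cotl1 and -0.17 for Pfn2.

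Leaving out 1 lysate moved the log2 fold change between -0.53 and 0.15 for Tmsb4x and between -0.050 and 0.30 for Actb. The sex difference of the effect ranged from -0.34 to 0.93 for Cotl1, -0.40 to 0.55 for Cfl1, -0.099 to 0.99 for Dstn, -0.60 to 0.17 for Pfn1, -1.03 to 0.24 for Tmsb4x, -0.16 to 0.51 for Tmsb10, -0.41 to 0.16 for Actb and -0.098 to 0.95 for Actg1. The female minus male log2 difference in level within Musashi IP ranged from -0.50 to 0.55 for Cotl1, -0.057 to 0.65 for Cfl2 and -0.060 to 0.50 for Pfn1. That difference ranged from -0.28 to 0.18 for Pfn2, -0.35 to 0.25 for Tmsb4x and -0.051 to 0.33 for Actb. Within IgG the female minus male difference in level ranged from -0.014 to 0.57 for Cfl1, -0.37 to 0.060 for Cfl2, -0.40 to 1.09 for Tmsb4x and -0.13 to 0.73 for Actb. The cause of these changes was not tested. With 3 female and 2 male lysates, and 40 to 71 counts of Cotl1 in IgG, small differences were not detectable. Larger ones were not excluded either, since the 95% interval for the sex difference of the Cotl1 effect was -1.05 to 1.58.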
